A study of Homo sapiens with 4 samples.

Results

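The cell cycle and DNA replication genes were 37 protein-coding genes, of 20033 in the annotation, that encode the cyclins, cyclin-dependent kinases (CDKs), transcription factors, replication proteins and mitotic kinases of the division cycle. They were chosen by name, and each was followed over its gene body with 10 kb on each side, its domain. All 37 were found in GENCODE release 44 (hg38), and every H3K27ac or MYOD peak touching a domain by at least 1 bp was taken. The cells were of the established line RD, which comes from a fusion-negative rhabdomyosarcoma, a tumor of the muscle lineage whose cells express MYOD but do not complete differentiation. The knockdown cells carried a lentiviral shRNA against SKP2 (shSKP2, labelled SKP2 knockdown) and the control cells a scrambled shRNA (shSCR, labelled WT), and both were selected with puromycin. SKP2 is the substrate-recognition subunit of a ubiquitin ligase that marks CDK inhibitors for degradation. Both arms were profiled by ChIP-seq for H3K27ac, the acetylation found on histones at active promoters and enhancers, and for MYOD, the master factor of skeletal muscle genes. This gave 4 libraries, 1 per group, so the spread between replicates is unknown, no test or p-value is given, and intervals cover counting error only.

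Cells enter the cycle when D-type cyclins with CDK4 or CDK6, then E-type cyclins with CDK2, relieve the block that pocket proteins place on E2F factors, which switch on the genes of DNA replication. CDC6 and CDT1 load the MCM helicase onto origins in G1, and PCNA, thymidylate synthase (TYMS) and ribonucleotide reductase (RRM2) serve synthesis in S phase. Later, MYBL2 (B-MYB) and FOXM1 switch on the G2 and mitosis genes, whose promoters typically carry CCAAT boxes and the cell cycle homology region (CHR), while G1/S promoters carry E2F sites. In differentiating muscle, cells leave the cycle as MYOD activates muscle genes. Neither H3K27ac nor MYOD peaks measure transcripts, so the values here describe chromatin at these genes and not how much RNA they make.

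The promoters of 3 genes are shown because the lists differed there: CDC6 had an H3K27ac peak in control cells only, PLK1 in knockdown cells only, and CDK1 had the lowest ratio of knockdown to control enrichment among promoters marked in both arms. The sequences are from RefSeq (GRCh38.p14), run 5′ to 3′ on the coding strand from 250 bases before to 30 bases after the RefSeq start site, and carry in capitals each CCAAT box (CCAAT, or ATTGG on the other strand), CHR (TTTGAA, read as TTCAAA on the other strand, and its variant TTTAAA) and E2F site (TTTCGCGC, TTTGGCGC, TTTCCCGC or TTTGCCGC on either strand).
CDC6, chr17:40287629-40287908: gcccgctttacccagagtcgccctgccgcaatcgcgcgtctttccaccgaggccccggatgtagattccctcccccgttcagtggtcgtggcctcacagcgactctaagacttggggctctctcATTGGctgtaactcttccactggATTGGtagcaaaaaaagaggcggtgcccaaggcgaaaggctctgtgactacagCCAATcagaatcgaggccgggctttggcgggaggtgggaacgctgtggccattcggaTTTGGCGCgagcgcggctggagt
PLK1, chr16:23678639-23678918: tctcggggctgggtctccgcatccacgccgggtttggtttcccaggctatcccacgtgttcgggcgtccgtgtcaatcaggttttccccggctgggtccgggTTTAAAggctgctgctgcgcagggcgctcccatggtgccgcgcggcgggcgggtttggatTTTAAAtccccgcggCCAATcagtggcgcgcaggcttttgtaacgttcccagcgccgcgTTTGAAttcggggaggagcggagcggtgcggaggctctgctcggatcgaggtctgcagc
CDK1, chr10:60778228-60778507: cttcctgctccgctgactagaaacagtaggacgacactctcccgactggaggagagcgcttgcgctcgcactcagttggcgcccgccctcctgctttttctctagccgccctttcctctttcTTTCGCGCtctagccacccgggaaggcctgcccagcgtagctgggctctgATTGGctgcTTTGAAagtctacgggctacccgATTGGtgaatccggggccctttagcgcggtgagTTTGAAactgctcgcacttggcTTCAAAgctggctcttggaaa
CDC6, a G1/S gene, carries CCAAT boxes and an E2F site, PLK1, a mitotic kinase, carries CHR elements with a CCAAT box, and CDK1 carries all 3 kinds of element.

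The MYOD sites of 5 genes are shown next, because a strong peak was kept at one and the others overlapped no MYOD peak of the control list. Each line gives 121 bases of hg38, plus strand, centred on the knockdown summit, with E-boxes in capitals, meaning the palindrome CAGCTG as well as the form CAGGTG with its reverse complement CACCTG. These are hexamers that MYOD with its partners prefers.
CCND3, chr6:42030696-42030816: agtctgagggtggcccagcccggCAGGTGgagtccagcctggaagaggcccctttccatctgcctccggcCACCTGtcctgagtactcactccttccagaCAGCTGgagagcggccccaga
E2F1, chr20:33685286-33685406: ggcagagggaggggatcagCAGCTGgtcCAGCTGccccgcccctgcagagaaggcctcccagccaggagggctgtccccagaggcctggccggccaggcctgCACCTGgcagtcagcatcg
E2F2, chr1:23525897-23526017: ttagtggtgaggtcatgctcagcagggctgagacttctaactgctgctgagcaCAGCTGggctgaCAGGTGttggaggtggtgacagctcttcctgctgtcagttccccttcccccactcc
FOXM1, chr12:2885399-2885519: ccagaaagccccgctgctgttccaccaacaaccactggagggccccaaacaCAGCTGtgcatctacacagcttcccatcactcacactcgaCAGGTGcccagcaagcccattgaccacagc
MYBL2, chr20:43721944-43722064: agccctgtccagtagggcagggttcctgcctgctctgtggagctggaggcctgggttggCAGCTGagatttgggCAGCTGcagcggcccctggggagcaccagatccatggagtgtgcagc
The CCND3 site lies in the annotated gene body but upstream of the canonical start, the E2F1 and E2F2 sites lie in intron 1, the FOXM1 site in a coding exon of the neighbouring gene RHNO1, and the MYBL2 site downstream of the gene.

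The H3K27ac lists held 38457 peaks after knockdown and 25356 in the control, and the MYOD lists 8457 after knockdown and 5814 in the control. Read totals are not in the lists, so depth was judged by the smallest local background at any peak of a list: 1.61 fragments in knockdown and 1.75 in control H3K27ac, and 1.94 in knockdown and 1.48 in control MYOD. The knockdown MYOD library was thus the deeper one by this measure. H3K27ac covered 23.7 Mb after knockdown and 11.6 Mb in the control, so any gene list has to be read against a general gain. Whether the spike-in scaled the peak calls is not stated, so this gain is one of called area and not of absolute occupancy. Of 7 markers of the muscle lineage, 6 had an H3K27ac peak in knockdown and 5 in control cells, among them MYOD1 and MYOG in both. DES had 0 in both arms. Cover was larger after knockdown at 5 of the 7 and smaller at 1, CDH15 (0.653 kb after knockdown and 0.931 kb in the control). Of 5 markers of other lineages 3 had a peak in each arm, with ALB and PECAM1 at 0. The 3 were EPCAM (4 peaks after knockdown and 3 in the control), PTPRC (3 and 2) and CD3E (1 and 1). The summed cover of the other-lineage markers was 4.39 kb after knockdown and 2.25 kb in the control, and their part in any result was not tested.

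To see whether the cell cycle genes shared in the general gain, the bases under H3K27ac peaks were summed in each domain. Cover was larger after knockdown, called a gain here, at 33 of the 37 genes (89.2%, Wilson 95% interval 75.3 to 95.7%), smaller at 3 and equal at 1. Of all 20033 genes, 66.7% gained and 3.92% lost. Most cell cycle genes are marked in control cells and most genes are not, so the closer yardstick is the genes with a control promoter peak: there 27 of 30 members gained (90%) against 94.3% of all such genes, and 3 lost (10%) against 5.69%. The median ratio of knockdown to control cover was 1.54 over the 31 members with control cover and 1.82 over all genes with control cover. The median difference ran the other way, at 0.478 kb for the 37 members and 0.398 kb for all genes, though among genes with a control promoter peak it was 0.611 kb for members and 0.721 kb for all. Summed over the domains, H3K27ac covered 68.3 kb in knockdown and 42.4 kb in control cells. With both lists made equally long by peak strength, 25 members gained (67.6%) and 9 lost (24.3%), against 57.4% and 9.09% of all genes. Here too all genes include those with no control peak, which cannot lose cover.

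**Figure D1:**
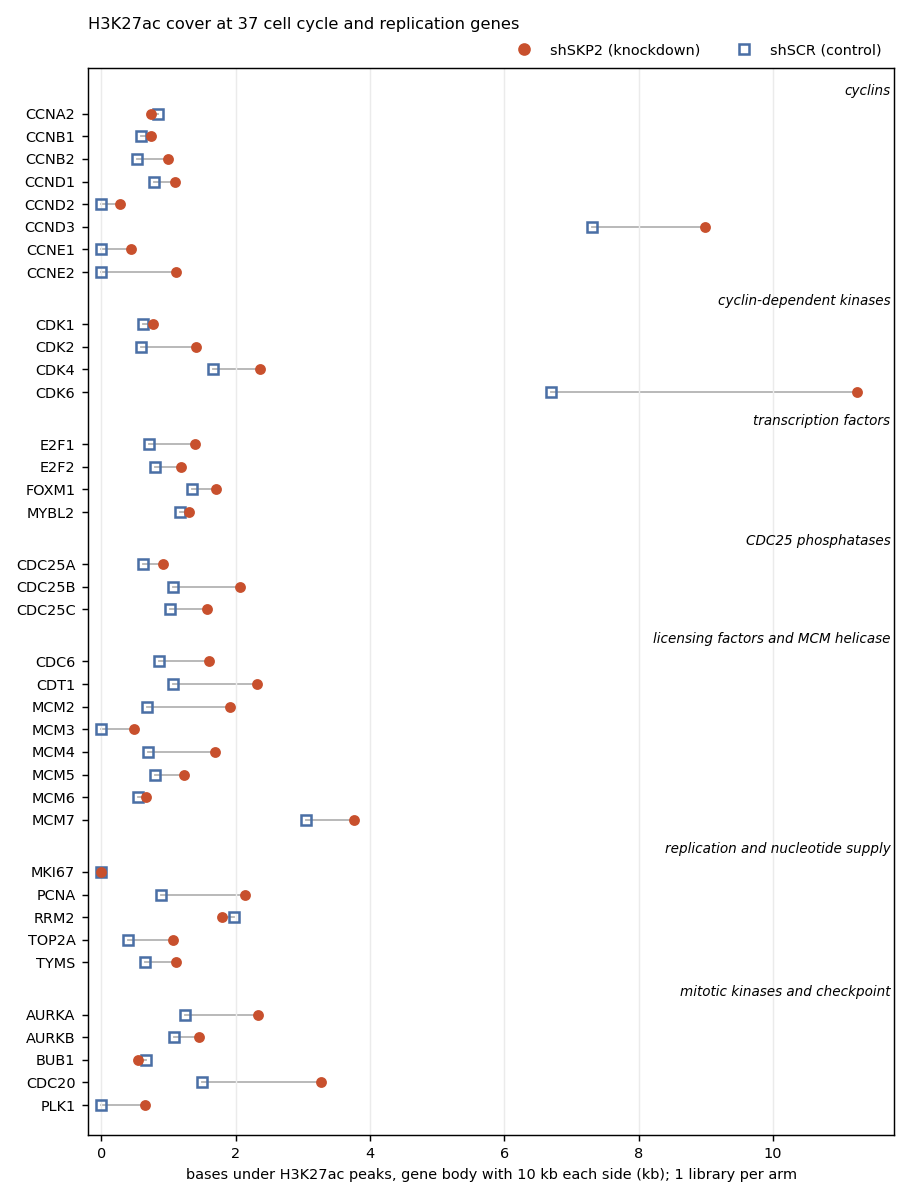
Bases under H3K27ac peaks (x axis, kb) in the gene body with 10 kb on each side of the 37 genes, grouped by role, with 1 library per arm. Filled circles are shSKP2 cells and open squares shSCR cells. CDK6 and CCND3 stand far to the right with 11.2 and 8.98 kb after knockdown, and the circle lies left of the square only at CCNA2, RRM2 and BUB1.

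Gains by role, here and in the next paragraphs, have to be read against the general gain. Of all genes 66.7% gained, and of those with a control promoter peak 94.3%. Differences between roles were not tested. The cyclins gained at 7 of 8 genes. CCND3 (cyclin D3, the D-type cyclin tied to muscle differentiation) had by far the widest cover among them, 8.98 kb in 12 peaks after knockdown and 7.30 kb in 15 peaks in the control. Local background at the CCND3 peaks reached 38.8 fragments in knockdown and 31.0 in control cells, and the folds there are taken over that background. CCND1 (cyclin D1) had 1.10 kb after knockdown and 0.776 kb in the control. The 3 cyclin genes with no control peak in their domains each had 1 knockdown peak: CCND2 in intron 1, 1.32 kb from the start (3.28-fold enrichment of the summit over local background), CCNE1 574 bp upstream (5.41-fold) and CCNE2 1.74 kb upstream (5.03-fold). The E-type cyclins that CCNE1 and CCNE2 encode drive entry into S phase through CDK2. Among the mitotic cyclins, CCNB1 had 0.737 kb after knockdown and 0.590 kb in the control and CCNB2 0.997 kb after knockdown and 0.536 kb in the control, while CCNA2 (cyclin A2), with 1 peak in each arm, had 0.739 kb after knockdown against 0.843 kb in the control, a difference of -0.10 kb.

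All 4 CDK genes gained. CDK6 had the largest gain of the 37, 4.55 kb: 11.2 kb in 18 peaks in knockdown cells and 6.70 kb in 17 peaks in the control. The peaks of CDK6 lay along its introns and beyond its end, up to 241 kb from the start, and the knockdown list had merged some neighbours, with a 1950-bp peak joining 2 control peaks 203 kb downstream. CDK4 had 2.37 kb after knockdown and 1.67 kb in the control, CDK2 1.41 kb after knockdown and 0.594 kb in the control and CDK1, the mitotic kinase, 0.767 kb after knockdown and 0.613 kb in the control. At CDK2 the new cover lay around the promoter of the neighbour RAB5B, where both single-list peaks were found, and the CDK2 start itself had a 302-bp peak after knockdown and a 274-bp peak in the control.

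The licensing factors and MCM genes gained at 8 of 8 genes, where 94.3% of all genes with a control promoter peak gained. CDT1, the factor that recruits MCM, had 2.32 kb after knockdown and 1.06 kb in the control, MCM2 1.92 kb after knockdown and 0.680 kb in the control and MCM4 1.69 kb after knockdown and 0.691 kb in the control. Much of the MCM2 gain lay at the promoter of TPRA1, where a 1433-bp knockdown peak faced a 206-bp control peak, and much of the CDT1 gain at APRT, where a 1793-bp knockdown peak joined 2 control peaks. MCM6 had 0.670 kb after knockdown and 0.538 kb in the control, the smallest gain of the group. MCM7, whose start lies within 1 kb of that of AP4M1, had 3.77 kb after knockdown and 3.04 kb in the control.

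The replication and nucleotide supply genes split, with 3 of 5 gaining. PCNA, the sliding clamp of DNA polymerase, had 2.13 kb after knockdown and 0.886 kb in the control, but its 3 new peaks lay at the neighbours TMEM230 and CDS2. TYMS had 1.11 kb after knockdown and 0.648 kb in the control and TOP2A (topoisomerase II alpha) 1.07 kb after knockdown and 0.398 kb in the control. RRM2 had 1.80 kb after knockdown and 1.98 kb in the control, the largest loss of the 37 at -0.18 kb, although the fold of its promoter peak was higher (5.39 in knockdown and 4.83 in control cells). MKI67, the gene of the Ki-67 proliferation antigen, had no H3K27ac peak and no MYOD peak in either arm.

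Among the mitotic kinases and checkpoint genes 4 of 5 gained. CDC20, the activator of the anaphase-promoting complex, had 3.27 kb after knockdown and 1.5 kb in the control, the second largest gain at 1.77 kb, and its new peak 9.64 kb upstream had the highest -log10 p of the members' knockdown-only H3K27ac peaks (20.1, with 7.64-fold). AURKA had 2.33 kb after knockdown and 1.24 kb in the control, AURKB 1.45 kb after knockdown and 1.08 kb in the control and PLK1 0.650 kb after knockdown and none in the control. BUB1, a spindle checkpoint kinase, had 0.550 kb after knockdown and 0.670 kb in the control (-0.12 kb) after 1 of its 2 control peaks, inside intron 1, went uncalled. The CDC25 phosphatases, which activate CDKs, gained at 3 of 3, with CDC25B at 2.06 kb after knockdown and 1.06 kb in the control. The 4 transcription factors also gained, E2F1 most with 1.39 kb after knockdown and 0.705 kb in the control, and MYBL2 least with 1.301 kb after knockdown and 1.17 kb in the control.

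The domains reach other promoters: 17 of the 37 held the start of another protein-coding gene. The comparison was therefore repeated in the 2 kb on each side of each gene's own start. This does not set neighbours apart everywhere. At 6 members, CCND2, CDK2, MCM4, MCM7, AURKA and FOXM1, another protein-coding start lay within 1 kb, and peaks there cannot be assigned to either gene. Cover there was larger after knockdown at 27 members, smaller at 8 and equal at 2, while 47.6% of all genes gained and 4.54% lost. Among genes with a control promoter peak, 8 of 30 members lost cover around the start (26.7%, interval 14.2 to 44.4%) against 10.5% of all such genes, and 22 gained against 89.4%. The 8 were CCNA2, CCND1, MCM5, PCNA, BUB1, CDC25C, CDC6 and RRM2, and 5 of them had gained over the whole domain. PCNA had 0.328 kb around its start in knockdown cells against 0.886 kb in the control. CDC6 had 0 kb after knockdown and 0.594 kb in the control, and MCM5 0.17 kb after knockdown and 0.594 kb in the control. TOP2A, MCM4 and CDC20 went the other way, with 1.07 kb after knockdown and 0.398 kb in the control at TOP2A. In the gene bodies alone 22 members gained (59.5%) and 12 lost (32.4%), against 54.2% and 5.13% of all genes. Those all-gene shares include genes with no control peak, which cannot lose cover. Gene bodies were not compared among genes with a control promoter peak.

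Which promoters were marked at all was asked next, with a promoter taken as 1 kb on each side of the canonical start. Each arm marked 30 of the 37 member promoters (81.1%), against 49.7% of all promoters after knockdown and 39.9% in the control. The identical counts hid an exchange at this promoter width: 3 promoters were marked in knockdown cells alone and 3 in control cells alone. The counts depended on the setting. With 2 kb on each side they were 34 after knockdown and 30 in the control, and with lists of equal length 23 and 30. Over all genes 10.6% were marked after knockdown alone and 0.764% in the control alone. Of promoters with a control peak, 3 of 30 members had no knockdown peak (10%, interval 3.46 to 25.6%), against 1.92% of all. The promoter peaks rarely covered the start base itself, in 5 members per arm, and the median distance of the strongest summit from the start was 342 bp after knockdown and 288 bp in the control.

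The 3 promoters marked in knockdown cells alone were those of CCNE1 (5.41-fold, -log10 p of 10.9), MCM3 (5.36-fold, 10.1) and PLK1 (3.598-fold, 6.12). No control peak lay within 1000 bp of any of them. MCM3 is a subunit of the replicative helicase and PLK1 a kinase of mitotic entry, and the PLK1 peak, 209 bp downstream of the start, was the nearest of the 3 to the calling limit.

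The 3 marked in control cells alone were those of MCM5, CDC6 and CCND1. MCM5, another helicase subunit, had 2 control peaks that flanked its start at -360 bp (4.91-fold, -log10 p of 14.3) and 192 bp (4.46-fold, 12.1), and the nearest knockdown peak lay 1999 bp upstream. CDC6, which loads MCM onto origins, had a 594-bp control peak 289 bp downstream of its start (4.95-fold, 14.1). The CDC6 domain kept an upstream peak, 3.72 kb from the start after knockdown, with 5.77-fold in knockdown and 3.76-fold in control cells, and gained 2 peaks in its 3' UTR, nearer to the start of RARA. At CCND1 peaks of 3.85-fold after knockdown and 3.97-fold in the control overlapped each other in intron 1, and only the control one reached within 1 kb of the start. A second control peak 921 bp upstream (3.44-fold) had no overlapping knockdown peak, and knockdown cells had one 2.32 kb upstream (4.89-fold). Neither arm marked the promoters of CCND2, CCNE2, MKI67 and MYBL2, although CCND2 and CCNE2 had the knockdown peaks further out given above.

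**Figure D2:**
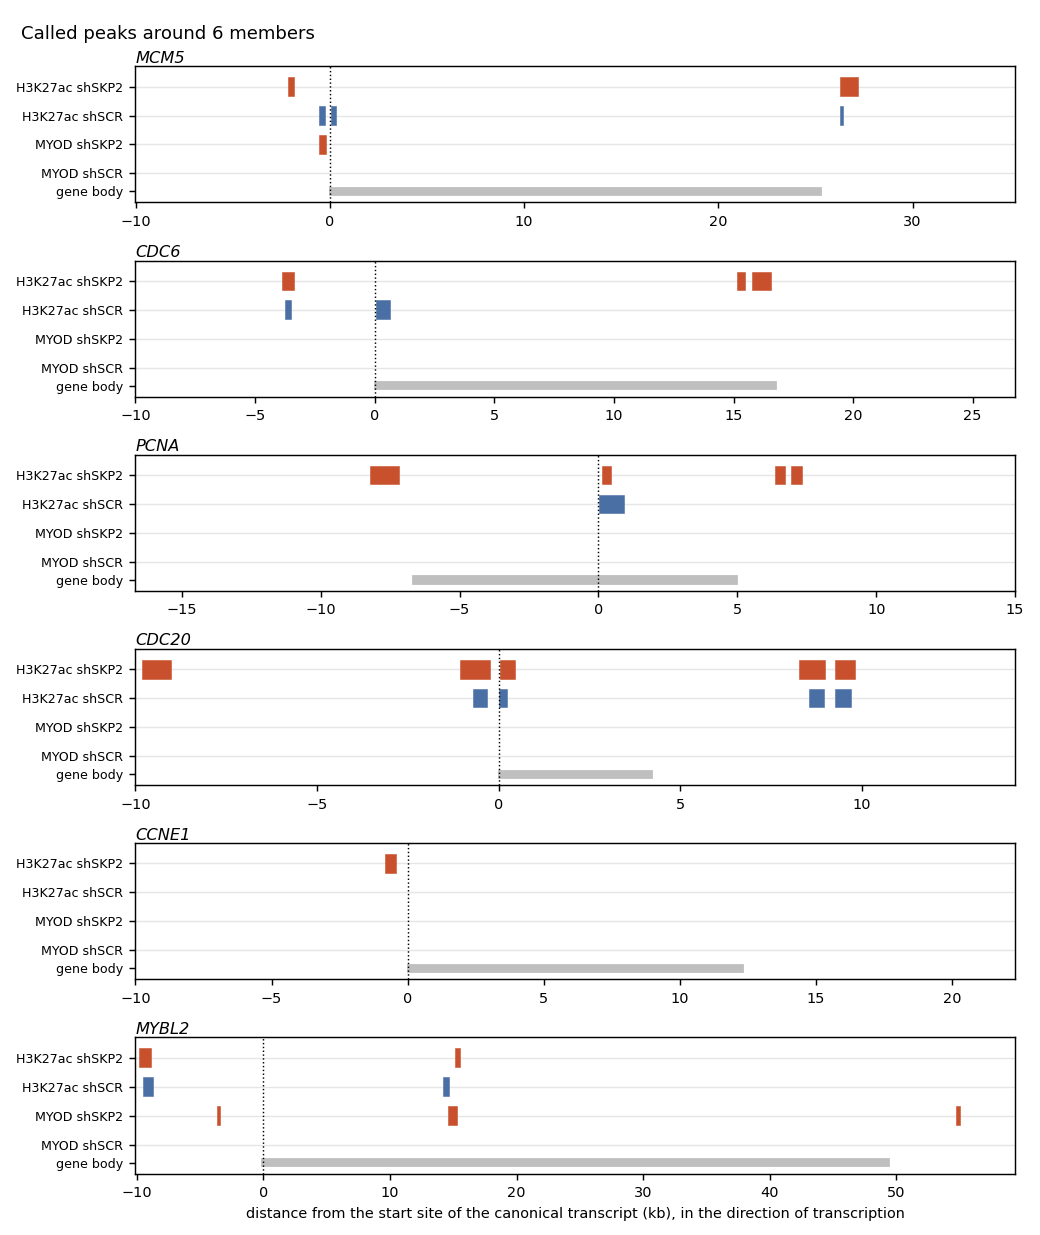
Called H3K27ac and MYOD peaks (boxes, to scale) around 6 genes against distance from the canonical start (x axis, kb, in the direction of transcription), with the gene body as a grey bar and the start as a dotted line. Knockdown boxes are orange and control boxes blue. The start of MCM5 and that of CDC6 carry H3K27ac boxes in the control row only, CCNE1 has 1 box and only after knockdown, and all 3 MYOD boxes of MYBL2 are in the knockdown row.

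At the 27 promoters marked in both arms, the fold was higher after knockdown at 18 (66.7%, interval 47.8 to 81.4%) and lower at 9, while 79.2% of all promoters marked in both arms were higher. The peaks were wider at 22 (81.5%), against 90.6% of all. The median ratio of knockdown to control fold was 1.11 for the members and 1.198 for all such genes, and the median width ratio 1.25 and 1.59. The highest fold in both arms was that of CDK4, the kinase partner of D-type cyclins. It was 12.4-fold in knockdown and 8.99-fold in control cells, at summits of 114 fragments after knockdown and 55 in the control. In the control CDK1 had nearly the same fold (8.97). MCM7 there had a higher summit than CDK4 (74 fragments) and a higher -log10 p (38.7 against 36.8). The highest ratios were those of CDT1 (6.76-fold after knockdown and 4.06-fold in the control), CDC25A (5.78-fold after knockdown and 3.63-fold in the control) and CDC20 (8.93-fold after knockdown and 5.64-fold in the control), the 3 with a ratio of at least 1.5.

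CDK1 had the lowest ratio, with 4.81-fold after knockdown and 8.97-fold in the control, although its peak was wider (767 bp in knockdown and 613 bp in control cells). PCNA had 3.78-fold after knockdown and 6.14-fold in the control and a narrower peak, 328 bp in knockdown and 886 bp in control cells. These were the 2 promoters whose control fold was at least 1.5 times the knockdown fold. MCM4 followed with 5.02-fold after knockdown and 7.41-fold in the control, at a start that lies within 1 kb of that of PRKDC. TOP2A had 5.40-fold after knockdown and 6.38-fold in the control, AURKB 7.64-fold after knockdown and 8.44-fold in the control and CDC25C 4.21-fold after knockdown and 4.82-fold in the control. The other 3 with a lower fold, CCNA2, CDK6 and E2F2, had ratios of 0.971, 0.975 and 0.965. At E2F2 the 2 peaks compared did not overlap: the control one lay 63 bp downstream of the start and the knockdown one 351 bp upstream. Each of these ratios rests on a single pair of summits, and the size of the difference that 2 control libraries would show is not known.

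**Figure D3:**
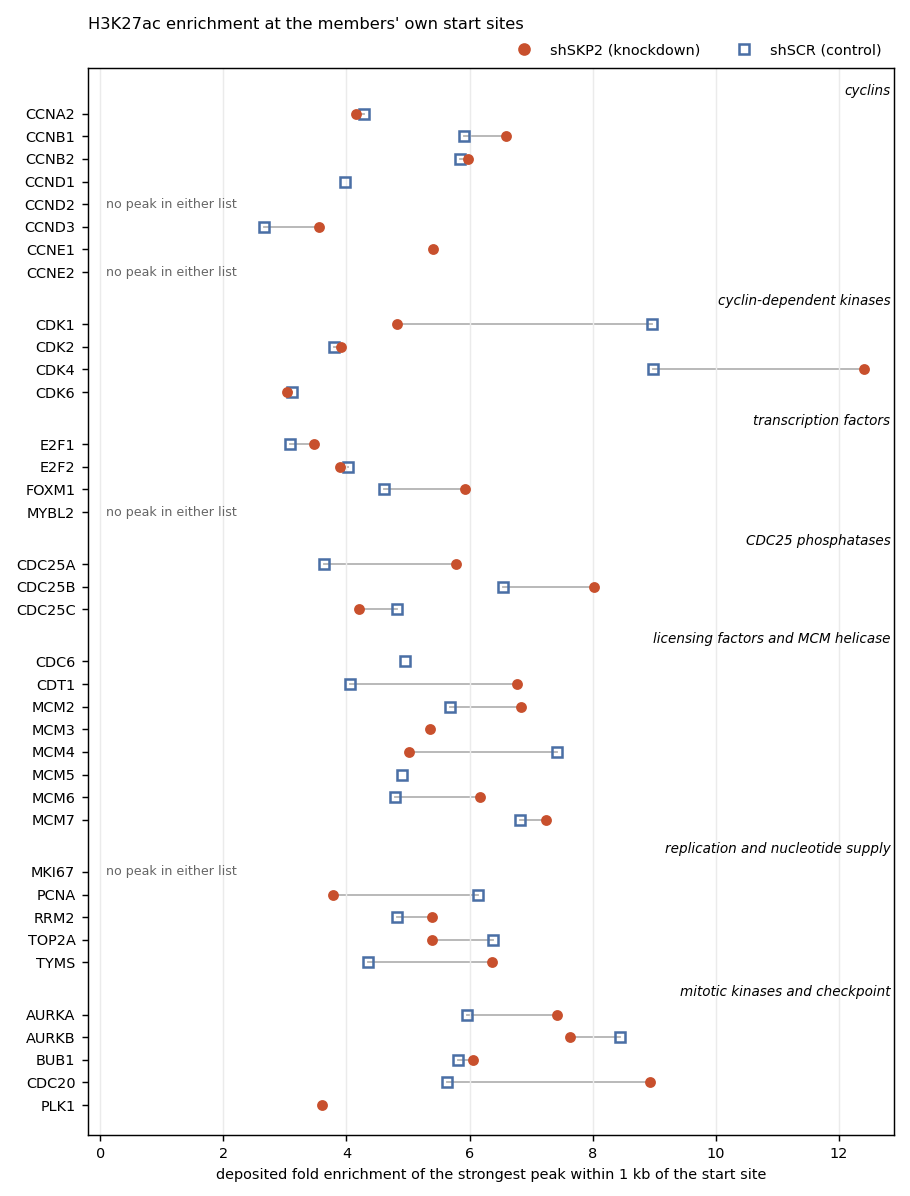
Deposited fold enrichment (x axis) of the strongest H3K27ac peak within 1 kb of the canonical start of each gene, with 1 library per arm. Filled circles are shSKP2 cells and open squares shSCR cells, and a lone symbol marks a promoter called in 1 arm. CDK4 is highest in both arms, CDK1 has the widest gap with the circle on the left, and MCM5, CDC6 and CCND1 have squares alone.

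The members held 106 H3K27ac peaks after knockdown and 96 in the control. Of the knockdown peaks 36 (34.0%, interval 25.6 to 43.4%) overlapped no control peak, while 48.6% of the whole knockdown list did not. Of the control peaks 21 (21.9%, interval 14.8 to 31.1%) overlapped no knockdown peak, against 13.6% of the whole control list. The cell cycle genes thus had a smaller share of new peaks and a larger share of control-only peaks than the lists as a whole. When peaks within 1000 bp counted as shared, 20 knockdown peaks (18.9%) and 6 control peaks (6.25%) stayed single, against 37.2% of the knockdown and 7.02% of the control list, so the excess of control-only peaks did not hold under that setting. The 6 belonged to MCM5 (2), CDC6 (1) and CCND3 (3). The 3 at CCND3 lay 75.2, 75.9 and 104 kb upstream of the canonical start.

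Of the 21 control-only peaks 11 lay within 1 kb of the gene's own start and 1 within 1 kb of another gene's start. Of the 36 knockdown-only peaks 7 lay near the own start, 7 near another gene's start, 14 elsewhere in the gene and 8 elsewhere in the flanks. A summit within 1 kb of any protein-coding start was thus found at 38.9% of the knockdown-only peaks (whole list 18.3%) and 57.1% of the control-only peaks (whole list 13.1%). Shared member peaks also lay at starts more often than those of the whole lists, at 60% in the knockdown list (whole list 37.4%) and 57.3% in the control list (whole list 37.1%). Of the 11 control-only peaks at the own start 8 had a knockdown peak within 1000 bp, which leaves 3. Single-list peaks were the weaker ones, with a median fold of 3.6 against 4.67 for shared peaks in the knockdown list and 3.13 against 3.89 in the control list. A strength of at least 10 in -log10 p was reached by 13 of the 36 knockdown-only and 6 of the 21 control-only peaks.

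MYOD was examined at the same genes. A MYOD peak lay in the domain of 13 members after knockdown (35.1%, interval 21.8 to 51.2%) and of 11 in the control (29.7%, interval 17.5 to 45.8%), against 30.6% of all genes after knockdown and 21.8% in the control, and 18 members had one in either arm (48.6%), against 35% of all. Among genes with a control promoter peak, 40% of members had a MYOD peak after knockdown, against 38.7% of all such genes. For the control these shares were 36.7% and 28.7%, and for either arm 56.7% and 45.0%. Both arms marked 6 members, CCND3, CDK2, CDK6, E2F2, MCM2 and MCM4. Knockdown alone marked 7 (all genes 13.1%) and the control alone 5 (all genes 4.39%). The members held 20 MYOD peaks after knockdown, 11 of them in that list only (whole list 55.9%), and 18 in the control, 9 of them in that list only (whole list 35.9%). With peaks within 1000 bp counted as shared, 10 knockdown peaks (whole list 54.3%) and 9 control peaks (whole list 34%) stayed single.

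The strongest MYOD sites were called in both arms, and the median fold of shared peaks was 7.49 in the knockdown and 5.92 in the control list, and that of single-list peaks 4.86 in the knockdown and 4.4 in the control list. At CCND3, 4 sites upstream of the canonical start were called in both arms. The site 88.9 kb upstream, printed above, had 14.0-fold enrichment after knockdown and 11.9-fold in the control (-log10 p of 113 after knockdown and 101 in the control), and that 66.1 kb upstream 10.8-fold after knockdown and 11.1-fold in the control. The site 68.7 kb upstream had 6.58-fold after knockdown and 5.92-fold in the control, and that at the TAF8 promoter, 109 kb upstream, 3.82-fold after knockdown and 4.37-fold in the control. Control cells had 2 more CCND3 peaks, in intron 2 (3.64-fold) and 75.5 kb upstream (5.46-fold), and the second overlapped control-only H3K27ac. The 88.9-kb site overlapped H3K27ac in both arms, where a 1677-bp knockdown peak joined 2 control peaks. The MYOD summit lay under that knockdown peak, but in the control it lay between the 2 peaks. MCM4 had its MYOD peak in coding exon 12, 9.82 kb from the start, with the highest MYOD fold of the members in knockdown cells, 15.9 after knockdown and 10.8 in the control. H3K27ac overlapped the MCM4 site after knockdown only, at the edges of the MYOD peak and not at its summit.

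CDK2 and MCM2 carried their kept MYOD peaks at neighbouring promoters. The CDK2 peak, at the start of RAB5B, had 8.73-fold in knockdown and 4.15-fold in control cells, and the MCM2 peak, 308 bp from the start of TPRA1, had 7.49-fold in knockdown and 5.87-fold in control cells. Both therefore mark the domains and not the starts of CDK2 and MCM2. CDK6 kept a weak site in intron 3, 67.8 kb from the start (3.87-fold after knockdown and 3.45-fold in the control), with a further knockdown peak in intron 1 (2.72-fold) and a further control peak in intron 3 (4.40-fold). E2F2 kept a site in intron 1 with 4.31-fold after knockdown and 6.02-fold in the control, and the second knockdown peak printed above, 5.28 kb from the start, had 6.17-fold.

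MYOD peaks in knockdown cells alone marked CDK4, E2F1, MCM5, MCM7, TYMS, FOXM1 and MYBL2. All 4 transcription factors had a MYOD peak after knockdown, against E2F2 alone in the control, where 30.6% of all genes did after knockdown and 21.8% in the control. MYBL2 had 3 such peaks: 3.54 kb upstream (6.28-fold), in intron 3 (6.20-fold) and 54.9 kb downstream of the start, beyond the gene end (7.23-fold, -log10 p of 22.6). The peak in intron 3 bridged H3K27ac of both arms, in which control cells had 1 peak and knockdown cells another that did not overlap it. FOXM1 had its peak 8.29 kb upstream, inside RHNO1 (7.22-fold, -log10 p of 18.3), with no H3K27ac in either arm. E2F1 had its peak in intron 1, 1.04 kb from the start (4.86-fold, 10.5), overlapping H3K27ac in both arms. Control H3K27ac covered the E2F1 summit, while in knockdown cells that summit lay between H3K27ac peaks. The 4 others were weaker and close to the start, at 126 bp in CDK4 (4.11-fold), 747 bp in MCM7 (3.78-fold), 676 bp in TYMS (3.69-fold) and -376 bp in MCM5 (4.71-fold).

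The MCM5 peak lay on the place of a lost H3K27ac call: the knockdown MYOD peak and the control H3K27ac peak began at the same base, 35399587 on chromosome 22 (hg38), and the MYOD peak ended at 35399921 and the H3K27ac peak at 35399891. Knockdown cells had no H3K27ac call there, and control cells no MYOD call. The nearest E-box of the 3 forms was 74.5 bp from its summit.

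MYOD peaks in control cells alone marked AURKA, CDC25B, CDC25C, CDT1 and RRM2, of which AURKA, CDC25B and CDC25C are G2/M genes. The strongest sat at the start of CDC25B, 19 bp downstream, in the 5' UTR of exon 1 (7.20-fold, -log10 p of 16.8), with a CAGCTG 27.5 bp from the summit and no H3K27ac over it in either arm. A second CDC25B peak, 11.5 kb downstream, had 3.29-fold. The CDT1 peak (5.77-fold) was nearest to the start of APRT, and that of CDC25C (4.03-fold) to FAM53C. The RRM2 peak lay 14.5 kb downstream of the start (5.36-fold), and the AURKA peak in intron 1 (3.41-fold). Of the 23 G1/S genes, 12 (52.2%) had a MYOD peak after knockdown and 8 (34.8%) in the control. Of the 14 G2/M genes 1 (7.14%), FOXM1, had one after knockdown and 3 (21.4%) in the control. The shares over all genes were 30.6% after knockdown and 21.8% in the control. The low G2/M share after knockdown was not seen at the 24 further mitosis genes described below. Of those, 7 (29.2%) had a MYOD peak after knockdown and 5 (20.8%) in the control. The G1/S and G2/M values are counts in single libraries of unequal depth, and the difference between the groups was not tested.

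**Figure D4:**
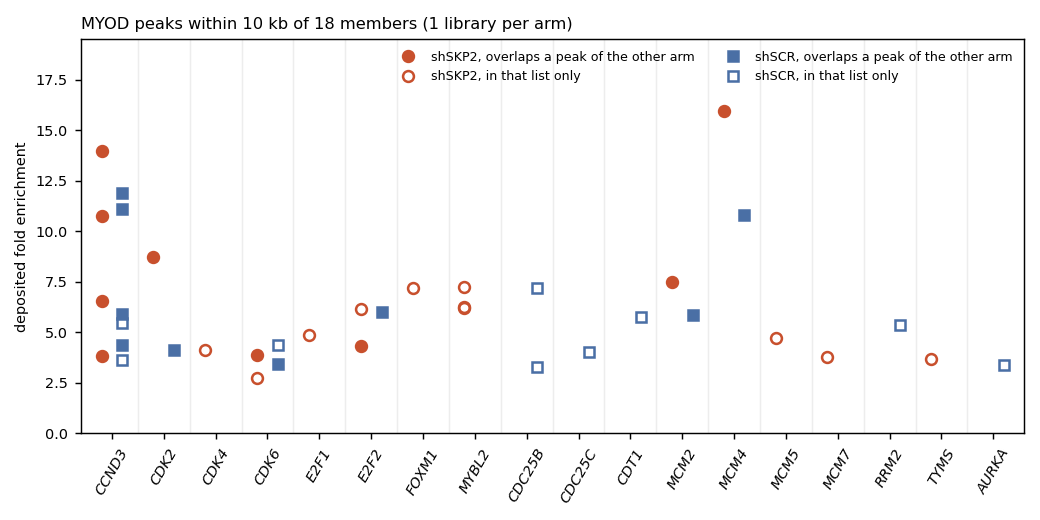
Deposited fold enrichment (y axis) of each MYOD peak in the domains of the 18 genes that had one, with 1 library per arm. Circles are shSKP2 cells and squares shSCR cells, and filled symbols overlap a peak of the other arm. The highest points, at MCM4 and CCND3, are filled, and FOXM1, E2F1 and MYBL2 have open circles alone.

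E-boxes were looked for within 100 bp of the MYOD summits, on both strands. A CAGCTG was found at 13 of the 20 member peaks after knockdown (65.0%, interval 43.3 to 81.9%) and 12 of the 18 in the control (66.7%, interval 43.7 to 83.7%), against 60.7% of the whole knockdown and 64.3% of the whole control list. Any of the 3 hexamers was found at 16 after knockdown (80.0%, whole list 85.6%) and at 15 in the control (83.3%, whole list 86.7%). Windows of the same size 2 kb away held one at 27.5% for the knockdown and 27.7% for the control list. The member sites thus held E-boxes about as often as MYOD sites did elsewhere. The strong CCND3 and MCM4 sites and the FOXM1 and MYBL2 sites each held one. The 4 knockdown peaks without one were those at MCM7 and TYMS, in intron 1 of CDK6 and at the TAF8 promoter in the CCND3 domain, while the peaks close to the starts of CDK4 and MCM5 held one.

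The promoters were then read for cell cycle elements, in the 300 bases from 250 before to 50 after the RefSeq start of the 29 members that matched a promoter in that table. CCND1, CCND2, CCNE2, CDK2, MCM4, MCM5, AURKA and FOXM1 were not matched, and a RefSeq start can differ from the canonical GENCODE start. CDC25B, counted below among the promoters with a CHR, was read at 3799798 to 3800097 on chromosome 20, while its canonical start is 3796310. The windows of CCND3, CDK6, MCM7, AURKB and RRM2 did not hold the canonical start either. CCAAT boxes were found in 20 of 29 (69.0%, against 34.6% of all 35116 promoters), E2F sites in 10 (34.5%, against 3.31%) and CHR elements in 10 (34.5%, against 24.0%). The elements followed the phase of the gene. Of the 17 G1/S promoters 9 held an E2F site and 1 a CHR, and of the 12 G2/M promoters 1 held an E2F site and 9 a CHR. A CHR with a CCAAT box stood in 8 of the 12 G2/M promoters and in 0 of the 17 G1/S promoters, against 9.27% of all. E-boxes of the 3 forms stood in 8 of 29 (27.6%), against 34.5% of all promoters. A match here is a run of letters and not a shown binding site.

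The same measures were taken at other genes of the pathway. Of 30 further replication genes (origin recognition, CMG helicase, polymerases and clamp loaders), 27 gained cover and 1, RFC5, lost, and MYOD marked 11 after knockdown and 10 in the control. Of all genes 66.7% gained and 3.92% lost, of those with a control promoter peak 94.3% and 5.69%, and MYOD marked 30.6% of all genes after knockdown and 21.8% in the control. The median cover ratio of the replication genes was 1.80, against 1.54 for the members and 1.82 for all genes. Of 24 further mitosis genes 18 gained and 6 lost (25.0%), with a median ratio of 1.37. MYOD marked 7 of the 24 (29.2%) after knockdown and 5 (20.8%) in the control. The 6 that lost cover were CENPF (0.690 kb after knockdown and 1.25 kb in the control), NUF2, BUB1B, NDC80, CENPE and BIRC5. Among the 18 that gained was CENPA, which encodes the centromeric histone H3 variant (2.88 kb after knockdown and 0.783 kb in the control). CENPE had a promoter peak in the control alone (4.04-fold). Of 8 further E2F family genes and partners 5 gained and 2, E2F4 and E2F7, lost, and E2F7 had 1 peak in the control (4.00-fold) and none after knockdown.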

How the data were processed

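Peak lists of 4 ChIP-seq libraries of RD cells were used, grouped by their titles. Per the study's methods, chromatin was fixed with 1% formaldehyde for 10 min, digested with micrococcal nuclease, precipitated with Drosophila spike-in chromatin, aligned with BWA (0.7.17 in the submitters' processing notes) and called with MACS3 per library against input, and peaks in an exclusion list were removed. The authors deposited for each peak a fold (summit pileup over local background), a -log10 p and -log10 q (a p-value and q-value), and a score (-log10 p times 10). The stated threshold is a -log10 p of 5, yet 2.41 to 4.13% of peaks lay under it. Whether spike-in scaling entered peak calling is not stated in the sources used here, and without it cover and folds do not measure absolute occupancy. Read counts per library are not in the lists.

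From these, cover, overlap (1 bp) and promoters (1 kb around the canonical start, GENCODE 44) were computed in Python 3.11.15 with numpy 2.4.6 and scipy 1.17.1, and plotted with matplotlib 3.10.9. Peaks on chromosomes of the main assembly were kept, which left out 1 peak of each H3K27ac list. The pileup was recovered from fold and p. Functions were tested on simulated data. The 29 promoters matched the hg38 sequence. Members and lists (roles, G1/S and G2/M groups, pathway genes, markers, motifs) were chosen with earlier results of these data known. Genes were named with values if they had a MYOD peak, a promoter H3K27ac peak in 1 arm or none, or one of the 5 largest or smallest cover differences, with examples per role. Alternatives changed the threshold, list length, domain, promoter, overlap and size of gain.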

Additional observations from a re-analysis of the deposited data

How the results depend on the processing

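No paired analysis was possible because each group has 1 library. More members gained than lost cover in each of the 7 alternatives tried, and 28 of 55 alternative values stayed within 1.5 times the main one. All genes also gained more often than they lost wherever they were counted, so this direction is not particular to the members. With lists of equal length 57.4% of all genes gained and 9.09% lost, and in gene bodies alone 54.2% and 5.13%. Requiring 1.5 times the control cover and 200 bp more left 21 members with a gain, and 0 with a loss of that size. The share of all genes passing that limit is not given. Losses, 3 in the main setting, were 9 with lists of equal length, 12 in gene bodies alone and 8 in the 2 kb around the start. Knockdown-only H3K27ac peaks, 36 in the main setting, were 19 with lists of equal length, 21 in gene bodies, 13 around the start, 68 with 50 kb flanks, 20 with peaks within 1000 bp counted as shared and 57 with a reciprocal overlap of 50%. Control-only peaks, 21 in the main setting, were 10 at a -log10 p of at least 10, 34 with lists of equal length, 12 around the start, 6 within 1000 bp and 47 with the reciprocal overlap, so which arm held more single-list peaks turned with list length. Members with a MYOD peak after knockdown, 13 in the main setting, were 8 at a -log10 p of at least 10, 5 around the start and 23 with 50 kb flanks. In the control, 11 in the main setting, they were 7, 3 and 23. Marked promoters, 30 in each arm, were 5 and 5 where the peak had to cover the start base. At a -log10 p of at least 10 they were 23 after knockdown and 19 in the control. They were 34 and 30 with 2 kb on each side of the start, and 23 and 30 with lists of equal length. A further alternative, chosen after seeing the data, set knockdown peaks of a -log10 p of at least 10 against the full control list: it left 13 knockdown-only H3K27ac peaks and 8 members with a MYOD peak after knockdown. Apart from the lengths and thresholds named, the cause of these shifts was not tested. Where a list has no peak, the signal did not reach its calling limit at that depth.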
